A study of Homo sapiens with 8 samples.

Results

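The long noncoding RNAs NEAT1, MALAT1, NORAD, TUG1, KCNQ1OT1, PVT1, CYTOR, MIR22HG and MIR17HG were followed through 8 libraries of transcript 3′ ends. These 9 genes, picked by name, are 9 of the 78932 genes in the count tables, and 8 of them passed the filter on low counts that 12618 genes passed. The cells were HCT116, a human colorectal cancer line, with NUDT21 carrying a degradation tag (dTAG-NUDT21). In 4 libraries the cells had received DMSO, the solvent, with JTE-607, and in 4 they had received dTAGV1 with JTE-607. All 8 libraries therefore carry the tag and JTE-607, and the comparison is of dTAGV1 against DMSO within that setting. Doses, times, the number of clones and whether replicates were separate cultures are not given in the sources used here, so p-values measure only the spread between these libraries, which may be technical.

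Cleavage factor Im (CFIm) recognises UGUA motifs in nascent RNA and favours the poly(A) sites that lie near them. NUDT21 is its small subunit, and CPSF6 and CPSF7 encode the larger ones. dTAGV1 is a degrader that brings proteins carrying the tag to a ubiquitin ligase. JTE-607 is a compound whose active form inhibits CPSF73, the endonuclease that cuts pre-mRNA at poly(A) sites. NEAT1 is the RNA scaffold of paraspeckles and has a short polyadenylated isoform and a long one that share their 5′ end. CFIm is known to favour the poly(A) site of the short isoform, and HNRNPK to oppose its use. MALAT1 is a nuclear speckle RNA whose 3′ end is made by RNase P rather than by the poly(A) machinery. NORAD is a cytoplasmic RNA that binds Pumilio proteins.

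Sense-strand counts, which are reads on the strand of the gene, numbered 3447842 to 4291256 per library. Counts of NUDT21 itself were 104 to 139 in the DMSO libraries and 15 to 43 in the dTAGV1 libraries, a log2 fold change of -1.95 (SE 0.18, edgeR adjusted p = 1.36e-09). These are reads of its mRNA. The amount of its protein, on which dTAGV1 acts, is not measured by these libraries. Of 7 epithelial colorectal markers, 6 were counted in every library and CDX1 was at 0 in all 8. The summed epithelial level was 1575 to 1830 counts for each 1000000 sense counts after scaling (CPM) with DMSO and 1253 to 1353 CPM with dTAGV1. The 3 immune markers summed to at most 0.820 and 0.850 CPM in the groups. Of the 3 fibroblast markers, COL1A1 was counted in every library, COL1A2 was at 0 in 6 and DCN at 0 in all 8, and they summed to 15.4 to 19.9 CPM with DMSO and 11.2 to 15.3 CPM with dTAGV1. The 2 endothelial markers summed to 1.64 to 2.93 CPM with DMSO and 0.237 to 0.850 CPM with dTAGV1. The part of these marker levels in the results on the lncRNAs was not tested. In RNA from whole cultures, fewer cells of a type and less RNA per cell cannot be told apart.

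Stretches of sequence from NEAT1, NORAD and MALAT1 frame the results and are printed 5′ to 3′ on the strand of the gene, from GENCODE 29 on GRCh38. The first surrounds the annotated end of the short NEAT1 isoform, the site that CFIm is known to favour, at chr11:65426383-65426543 on the plus strand. The second is the annotated 3′ end of NORAD at chr20:36045622-36045741 on the minus strand. Capitals in both mark the poly(A) signal AATAAA and each TGTA, the DNA form of the CFIm motif UGUA. The third is the end of the stretch of MALAT1 that lies before its RNase P cut, at chr11:65506058-65506113 on the plus strand, and its capitals mark an encoded run of A on which oligo(dT) can prime.
NEAT1 short 3′ end: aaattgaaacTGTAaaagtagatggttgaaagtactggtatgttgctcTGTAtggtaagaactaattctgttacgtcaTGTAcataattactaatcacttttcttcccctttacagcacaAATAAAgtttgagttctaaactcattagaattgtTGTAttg
NORAD 3′ end: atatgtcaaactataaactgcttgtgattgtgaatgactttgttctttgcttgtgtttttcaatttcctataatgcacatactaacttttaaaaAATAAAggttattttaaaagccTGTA
MALAT1 A-rich tract: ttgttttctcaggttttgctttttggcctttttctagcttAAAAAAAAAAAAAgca

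The NEAT1 window holds 4 TGTA. The AATAAA at 65426503 to 65426508 lies just before the annotated end of the short transcript NEAT1-208 at 65426513. The NORAD window holds 1 TGTA, after the AATAAA at 36045642 to 36045647. TGTA, searched on the transcript strand only, occurs 2 times in the last 100 bases of NEAT1-208 and 1 time in the last 100 bases of NORAD. For scale, 34.4% of the 203677 GENCODE 29 transcripts of at least that length hold TGTA in their last 100 bases, so its presence at these ends is common. The run of 13 A in MALAT1 lies 7 bases before the start of mascRNA, the small RNA released by the RNase P cut. A motif match is a description of letters and does not show that a protein binds there.

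Of the 8 lncRNAs tested, all 8 had an adjusted p under 0.05, 6 of them higher and 2 lower with dTAGV1. This count has to be read against the whole table, in which 57.9% of the 12618 tested genes were called, 29.4% higher and 28.5% lower. For 6 of the 8 lncRNAs the CPM of the groups did not overlap, which held for 50.9% of all tested genes. The median log2 fold change over all tested genes was 0.01. The sizes differed widely among the 8, from a log2 fold change of 1.17 for NEAT1 to -1.41 for NORAD, and the changes of MALAT1 and CYTOR were small. A level here is a count of 3′-end reads within the annotated gene. A change in the amount of an RNA and a change in the 3′ ends it uses cannot be told apart by such a count.

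**Figure D1:**
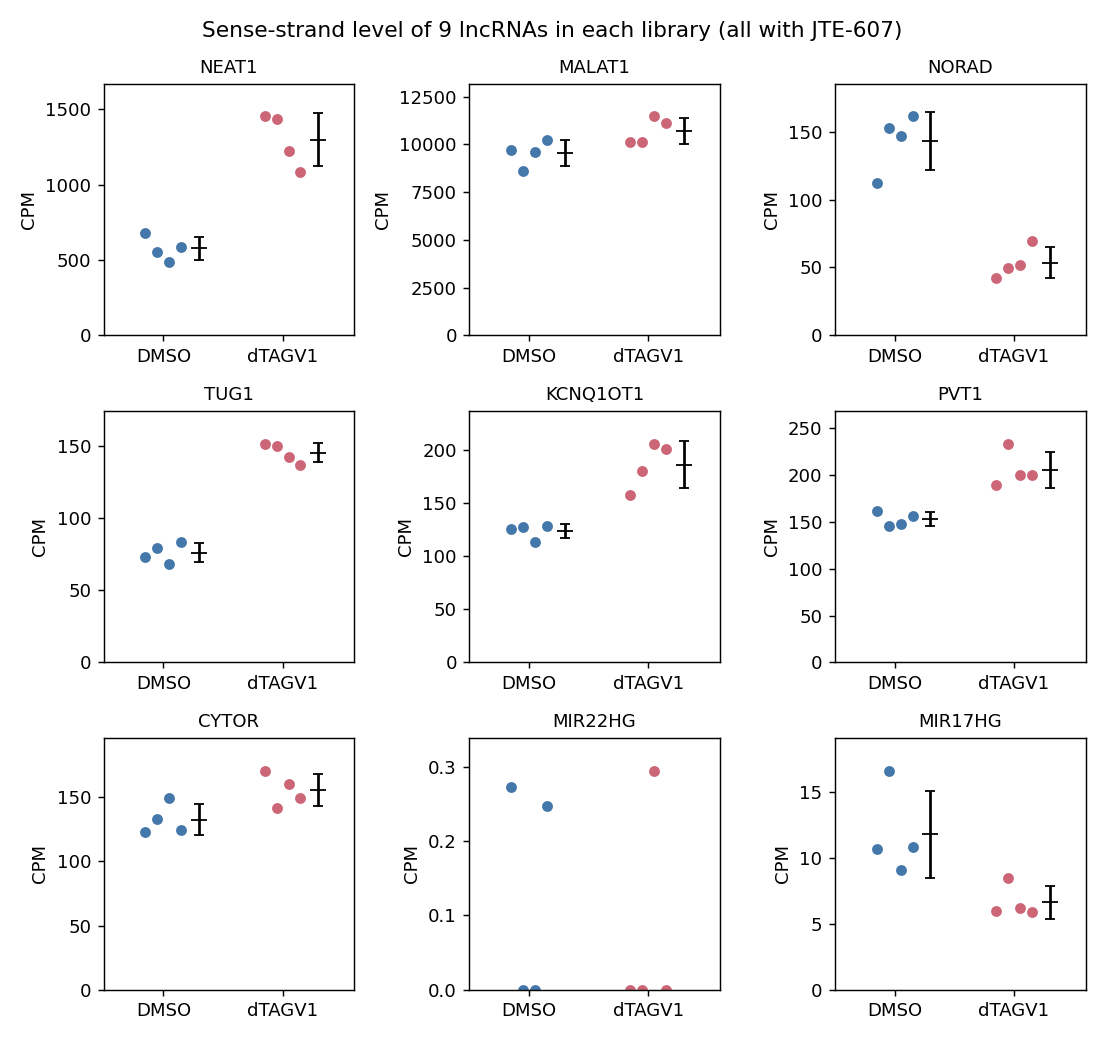
Sense-strand CPM (y axis, a linear scale for each gene) of the 9 lncRNAs in the DMSO and dTAGV1 libraries, both with JTE-607. Each point is 1 library, and the black marks are the mean ± SD of 4 libraries, left out for MIR22HG, which had at most 1 read in a library. The groups stand apart for NEAT1, NORAD, TUG1, KCNQ1OT1, PVT1 and MIR17HG and overlap for MALAT1 and CYTOR.

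NEAT1 (ENSG00000245532, chr11:65422774-65445540, plus strand, annotated as a lincRNA) had more reads after dTAGV1. Reads numbered 2478, 2303, 1825 and 2362 with DMSO, and 5121, 4747, 4153 and 4578 with dTAGV1, in the order of replicates 1 to 4, as for the genes that follow. Every dTAGV1 library was above every DMSO library. The level went from 576 ± 78.9 CPM (SD, n = 4) to 1298 ± 177 CPM (SD, n = 4). The fitted log2 fold change was 1.17 (SE 0.10), a 2.25-fold increase, with an edgeR adjusted p of 9.07e-08. Of all tested genes, 12.1% had a larger change in either direction. A count of all NEAT1 reads does not separate the short from the long isoform, and the long transcript NEAT1-202 spans 22743 bases.

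MALAT1 (ENSG00000251562, chr11:65497688-65506516, plus strand, lincRNA) lies 52.1 kb beyond NEAT1 on the same strand and had nearly the same level in both groups. Its counts were 35509, 35776, 36006 and 41350 with DMSO, and 35686, 33450, 38903 and 47026 with dTAGV1. The libraries of the groups overlapped. MALAT1 was at 9541 ± 666 CPM (SD, n = 4) with DMSO and 10700.3 ± 696 CPM (SD, n = 4) with dTAGV1. The log2 fold change was 0.17 (SE 0.07), 1.12-fold, with an edgeR adjusted p of 0.0377. That call was lost in 10 of 15 alternatives, where the log2 fold change ranged from 0.09 with library-size scaling to 0.19. It was lost without DMSO replicate 1, 2 or 3 and without dTAGV1 replicate 3 or 4, with a log2 fold change of 0.11 to 0.17 and adjusted p of 0.0610 to 0.192 among these 5. MALAT1 drew 0.879% to 1.10% of the sense counts of a library and ranked 2 or 3 among all genes by read count.

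With MALAT1 nearly level, reads of NEAT1 for each 100 reads of MALAT1 went from 5.07 to 6.98 across the DMSO libraries to 9.74 to 14.4 across the dTAGV1 libraries. These ratios did not overlap between groups, and they do not depend on library scaling because both counts come from the same library. They compare libraries and not the levels of the RNAs, since the reads of MALAT1 and of NEAT1 can start from different kinds of A-rich sequence.

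The nearest tested gene before NEAT1 did not share its rise. FRMD8, which ends 9.25 kb before NEAT1 on the same strand, fell by 1.00 on the log2 scale, with means of 75.6 CPM and 37.8 CPM (SE of the log2 change 0.10, edgeR adjusted p = 8.15e-09).

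NORAD (ENSG00000260032, chr20:36045622-36050960, minus strand, lincRNA) had the largest fall in read level among the 8 lncRNAs. Its counts were 411, 634, 550 and 652 with DMSO, and 150, 165, 176 and 295 with dTAGV1. Every dTAGV1 library was below every DMSO library. The level went from 143 ± 21.5 CPM (SD, n = 4) to 53.5 ± 11.6 CPM (SD, n = 4). The log2 fold change was -1.41 (SE 0.14, edgeR adjusted p = 4.94e-07). It was -2.05 with the counts irrespective of strand, which leave out reads lying under a gene of the other strand. The transcript of 5339 bases holds 15 TGTANATA, the DNA form of the Pumilio motif, and 51 TGTA, counted on the transcript strand with the longer motif included in the shorter one. Of its nearest expressed neighbours, both on the other strand, EPB41L1 fell by 1.08 on the log2 scale (SE 0.10, edgeR adjusted p = 2.18e-09, 40.5 kb away) and CNBD2 had a log2 fold change of -0.11 (adjusted p = 0.799).

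TUG1 (ENSG00000253352, chr22:30969245-30979395, plus strand) is a lncRNA first described as a gene upregulated by taurine, and it is annotated as starting at a bidirectional promoter. Its counts were 268, 330, 256 and 337 with DMSO, and 536, 497, 485 and 581 with dTAGV1. The groups did not overlap. Its level went from 76.1 ± 6.67 CPM (SD, n = 4) to 146 ± 6.71 CPM (SD, n = 4), a log2 fold change of 0.93 (SE 0.08, edgeR adjusted p = 7.93e-10). MORC2, a chromatin ATPase gene that starts 0.947 kb away on the other strand, rose as well, with a log2 fold change of 0.55 (SE 0.11, edgeR adjusted p = 0.000176). On the other side SMTN, which encodes a smooth muscle protein, had a log2 fold change of -0.04 (adjusted p = 0.833).

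KCNQ1OT1 (ENSG00000269821, chr11:2608328-2699994, minus strand) is an imprinted antisense RNA that runs against KCNQ1 and silences neighbouring genes on the paternal chromosome. Its counts were 460, 526, 426 and 519 with DMSO, and 555, 596, 698 and 847 with dTAGV1. The groups did not overlap. Its level went from 124 ± 6.74 CPM (SD, n = 4) to 186 ± 22.0 CPM (SD, n = 4), a log2 fold change of 0.59 (SE 0.08, edgeR adjusted p = 1.80e-06).

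PVT1 (ENSG00000249859, chr8:127794533-128101253, plus strand, lincRNA) is a host of microRNAs beside the MYC oncogene. Its counts were 591, 603, 556 and 633 with DMSO, and 670, 774, 679 and 847 with dTAGV1. The groups did not overlap. Its level went from 153 ± 7.39 CPM (SD, n = 4) to 206 ± 19.2 CPM (SD, n = 4), a log2 fold change of 0.43 (SE 0.08, edgeR adjusted p = 3.95e-05). MYC, 53.1 kb before it on the same strand, moved the other way, with means of 63.1 CPM and 40.6 CPM and a log2 fold change of -0.63 (SE 0.12, edgeR adjusted p = 6.61e-05).

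CYTOR (ENSG00000222041, chr2:87454781-87636740, plus strand, lincRNA) had counts of 451, 551, 561 and 503 with DMSO, and 602, 470, 544 and 632 with dTAGV1. The groups overlapped. Its level was 133 ± 12.2 CPM (SD, n = 4) with DMSO and 156 ± 12.5 CPM (SD, n = 4) with dTAGV1, a log2 fold change of 0.23 (SE 0.08, edgeR adjusted p = 0.0187). The call was lost in 6 of 16 alternatives. It was lost without DMSO replicate 1 or 4 and without dTAGV1 replicate 1 or 3, with a log2 fold change of 0.18 to 0.20 among these 4. CYTOR has a near-identical copy, MIR4435-2HG, and reads that fit both cannot be assigned, so its value is uncertain. The copy was higher with dTAGV1, with a log2 fold change of 0.56 (SE 0.12, edgeR adjusted p = 0.000270).

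**Figure D2:**
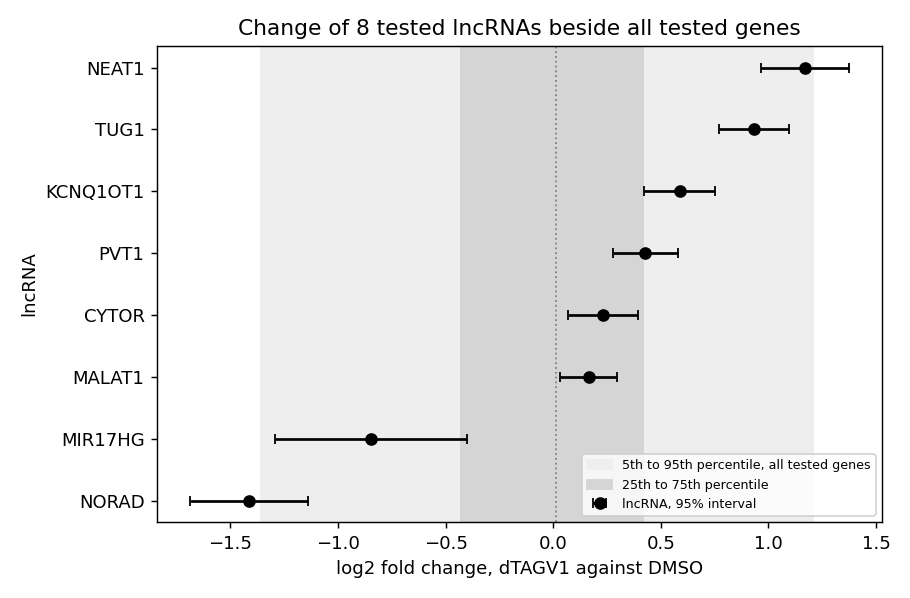
Log2 fold change, dTAGV1 against DMSO (x axis), of the 8 tested lncRNAs, with bars for an approximate 95% interval derived from the edgeR fit. The pale band spans the percentiles of all tested genes given in its key, the darker band the middle quartiles, and the dotted line is the median: NEAT1 at 1.17 and TUG1 at 0.93 lie highest, NORAD at -1.41 lies lowest, and MALAT1 and CYTOR lie within the inner band.

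MIR17HG (ENSG00000215417, chr13:91347820-91354579, plus strand, annotated as a processed transcript) is the host of the miR-17-92 cluster, a group of microRNAs that promote growth in many tumours. MIR22HG (ENSG00000186594, chr17:1711493-1717174, minus strand, lincRNA) is the host of miR-22. Their mature microRNAs are shown because a poly(A) library does not measure them, so the values that follow are those of the hosts alone. The sequences are from RefSeq on GRCh38.p14, with the seed, bases 2 to 8, in capitals.
hsa-miR-17-5p: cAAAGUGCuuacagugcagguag
hsa-miR-20a-5p: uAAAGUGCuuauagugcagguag
hsa-miR-18a-5p: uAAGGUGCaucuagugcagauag
hsa-miR-19a-3p: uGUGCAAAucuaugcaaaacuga
hsa-miR-19b-3p: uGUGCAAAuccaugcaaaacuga
hsa-miR-92a-3p: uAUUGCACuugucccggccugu
hsa-miR-22-3p: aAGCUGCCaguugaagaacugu

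By seed, miR-17-5p and miR-20a-5p form a pair with AAAGUGC, miR-19a-3p and miR-19b-3p form a pair with GUGCAAA, and each of the others stands alone. MIR17HG had counts of 39, 69, 34 and 44 with DMSO, and 21, 28, 21 and 25 with dTAGV1. Every dTAGV1 library was below every DMSO library. The level went from 11.8 ± 3.32 CPM (SD, n = 4) to 6.63 ± 1.23 CPM (SD, n = 4), a log2 fold change of -0.85 (SE 0.23, edgeR adjusted p = 0.00245). MIR22HG had 1, 0, 0 and 1 reads with DMSO and 0, 0, 1 and 0 reads with dTAGV1, and it did not pass the filter. A count of 0 allows up to 3 reads, which is 0.710 to 0.906 CPM in these libraries, so no difference in MIR22HG was detectable at this depth. SMYD4, a methyltransferase gene 62.3 kb from it, fell by 0.60 on the log2 scale (SE 0.18, edgeR adjusted p = 0.00507), while PRPF8, a spliceosome core gene 26.6 kb away on its other side, had a log2 fold change of -0.03 (adjusted p = 0.830).

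The count tables also allow a coarse look at where within a gene the reads fell, a comparison added after the values were seen. Each table counts reads once by strand and once irrespective of strand. In the second count, a read that lies under genes of both strands is given to neither. The sense count minus the count irrespective of strand is therefore the number of sense reads lying under an annotated gene of the other strand, less the gene's own opposite-strand reads counted irrespective of strand. The rest of the sense reads lie elsewhere in the gene. The test was run over 1128 genes with a mean of at least 10 reads in each portion and with own opposite-strand reads at most 10% of the overlapped ones. Of these, 24.0% were called, 11.4% with a higher and 12.6% with a lower overlapped share with dTAGV1. Of the 9 lncRNAs 5 could be tested, and NEAT1 and NORAD were called.

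In NEAT1, the overlapped portion was lower with dTAGV1 while the rest of the gene was higher. Overlapped reads numbered 80, 70, 66 and 70 with DMSO, and 4, 14, 6 and 12 with dTAGV1. The groups were far apart, although NEAT1 as a whole had more reads with dTAGV1. The overlapped share went from 3.21% ± 0.292 (SD, n = 4) to 0.195% ± 0.101 (SD, n = 4). In CPM, overlapped reads went from 18.4 ± 2.32 to 2.49 ± 1.35 (SD, n = 4), 7.39-fold lower, and reads elsewhere from 557 ± 77.0 to 1295 ± 177 (SD, n = 4), 2.32-fold higher. The log2 change of the ratio of overlapped to other reads was -4.07 (SE 0.23, edgeR adjusted p = 9.08e-13), ranking 5 by size among the 1128 genes.

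In NORAD, the overlapped portion was higher with dTAGV1 and the rest of the gene lower. Overlapped reads numbered 10, 20, 20 and 30 with DMSO, and 65, 59, 72 and 92 with dTAGV1. Each dTAGV1 library thus had more overlapped reads than any DMSO library, although NORAD as a whole had fewer reads with dTAGV1. The overlapped share went from 3.46% ± 0.909 (SD, n = 4) to 37.8% ± 5.42 (SD, n = 4). In CPM, overlapped reads went from 5.08 ± 1.92 to 19.8 ± 1.97 (SD, n = 4), 3.90-fold higher, and reads elsewhere from 138 ± 19.8 to 33.7 ± 10.2 (SD, n = 4), 4.10-fold lower. The log2 change of the ratio was 4.00 (SE 0.22, edgeR adjusted p = 3.83e-13), ranking 6 by size among the 1128 genes.

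**Figure D3:**
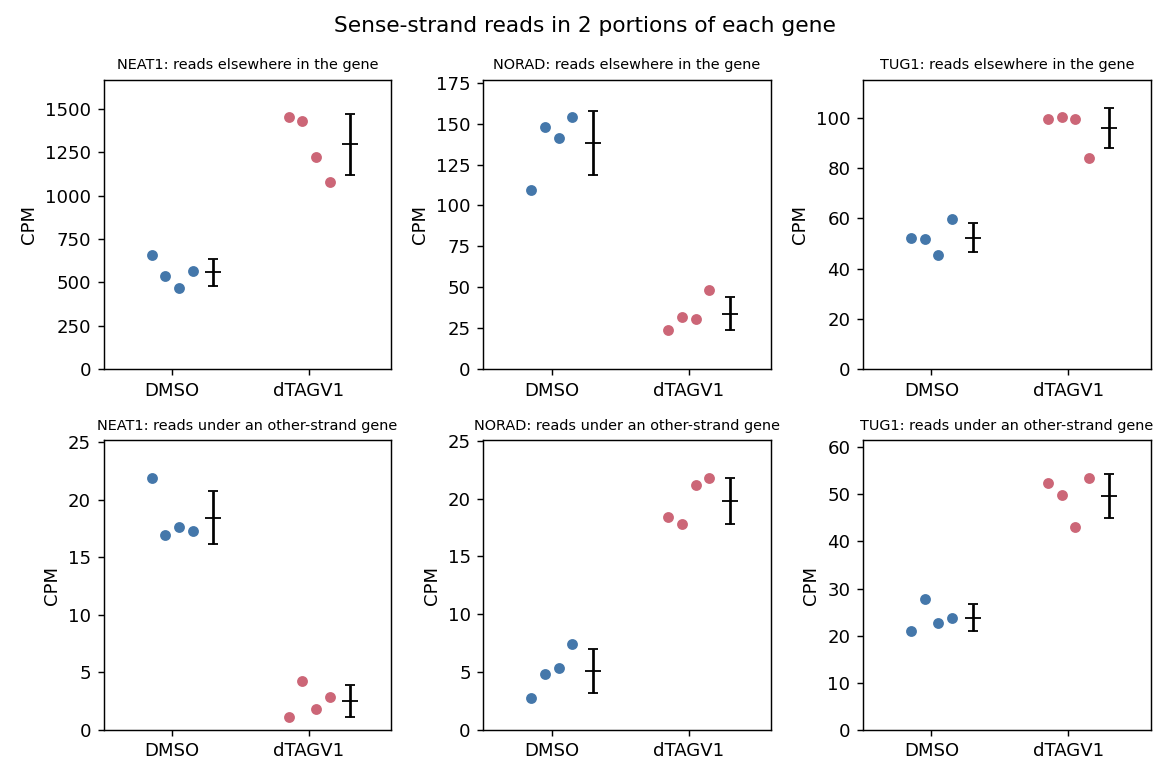
CPM (y axes, linear) of the sense reads of NEAT1, NORAD and TUG1 that lie elsewhere in the gene (upper row) and under an annotated gene of the other strand (lower row). Each point is 1 library and the black marks are the mean ± SD of 4 libraries: with dTAGV1 the overlapped reads are lower in NEAT1 and higher in NORAD while the others go the opposite way, and in TUG1 both portions are higher.

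The other 3 testable lncRNAs were not called. In TUG1 the overlapped share was 31.3% ± 3.20 (SD, n = 4) with DMSO and 34.2% ± 3.65 (SD, n = 4) with dTAGV1, a log2 change of the ratio of 0.19 (SE 0.16, edgeR adjusted p = 0.465). The overlapped portion of TUG1 was 2.09-fold higher with dTAGV1 and the other portion 1.83-fold higher. In PVT1 the shares were 2.63% ± 1.12 and 3.11% ± 0.603 (SD, n = 4), a log2 change of the ratio of 0.26 (SE 0.27, edgeR adjusted p = 0.594). MIR17HG went from 45.0% ± 6.71 to 56.3% ± 6.83 (SD, n = 4), a log2 change of the ratio of 0.67 (SE 0.36, edgeR adjusted p = 0.214). At this depth these intervals are wide, and smaller shifts in PVT1 and MIR17HG were not detectable.

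**Figure D4:**
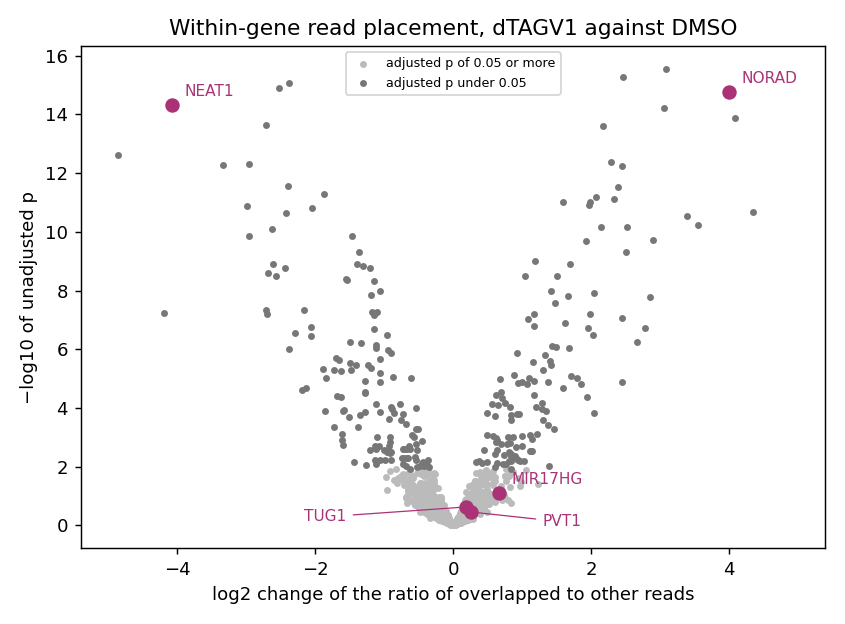
Log2 change of the ratio of overlapped to other sense reads (x axis) against −log10 of the unadjusted p (y axis) for 1128 genes, with the 5 testable lncRNAs in colour. NEAT1 lies at -4.07 and NORAD at 4.00, while TUG1, PVT1 and MIR17HG lie near the centre.

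As single values per library, the shares of NEAT1 and NORAD each gave p = 0.0286 in a 2-sided exact permutation test, the smallest that 4 libraries against 4 allow, and 0.0714 after adjustment over the 5 genes. The other-strand gene whose own opposite-strand counts came closest to the overlapped reads of NEAT1 was ENSG00000305854, with a summed difference of 4 reads from 322 and the next gene at 63. For NORAD the closest was ENSG00000303734, with a summed difference of 37 reads from 368, hardly apart from the next gene at 46. A likeness of counts does not place a gene: for TUG1 the closest was ENSG00000214184, which lies on chromosome 2, at 97 of 1095 reads. The positions of the genes that came closest for NEAT1 and NORAD are not in GENCODE 29, so the overlapped portion of neither lncRNA can be placed in the gene or assigned to an isoform. AC004542.2 (ENSG00000269987, chr22:30976515-30978848, minus strand) was looked at for TUG1 because it is annotated over it. Its opposite-strand counts totalled 993, or 90.7% as many as the overlapped reads of TUG1.

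MALAT1 could not be split in this way, because TALAM1, its antisense partner, is annotated over it and left at most 3 MALAT1 reads per library in the count irrespective of strand. Of the reads on the MALAT1 strand within TALAM1, 8.45% ± 0.579 (SD, n = 4) with DMSO and 9.35% ± 0.859 (SD, n = 4) with dTAGV1 were beyond the number counted to MALAT1, a difference of 0.902 percentage points (exact permutation p = 0.143, 2-sided). Whether these extra reads lie beyond the end of MALAT1 or are shared with mascRNA cannot be told apart. TALAM1 itself had at most 3 reads on its own strand in a library. CYTOR and KCNQ1OT1 had at most 8 reads per library under a gene of the other strand.

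Reads on the opposite strand were few for these lncRNAs. KCNQ1OT1 was the only one to pass the filter on that strand, with 54 reads over the DMSO and 53 over the dTAGV1 libraries and a log2 fold change of -0.06 (SE 0.33, edgeR adjusted p = 0.903). None of the lncRNAs was called there, against 48.4% of the 3324 genes tested on that strand. The opposite-strand share of KCNQ1OT1 was 2.75% ± 0.930 (SD, n = 4) with DMSO and 1.98% ± 0.647 (SD, n = 4) with dTAGV1 (exact permutation p = 0.257, 2-sided). NORAD had 4 opposite-strand reads in all with DMSO and 0 with dTAGV1 (exact permutation p = 0.0286, adjusted 0.229 over 8 genes). That p is the smallest that 4 libraries against 4 allow, so a single gene could not pass after this adjustment.

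Proteins that work with these RNAs were followed through their mRNAs. Each count of called genes that follows is to be read against the 57.9% of all tested genes that were called, 29.4% higher and 28.5% lower. For the paraspeckle, where NEAT1 gathers RNA-binding proteins, 24 of 25 listed genes were tested, and 17 were lower, 6 higher and 1 not called. Their median log2 fold change was -0.40, beside 0.01 for all tested genes. The list was chosen with earlier results of these data known. It includes the CFIm subunits, so the lower genes include NUDT21, which carries the tag, and CPSF6 and CPSF7. NUDT21 was the largest decrease of the list at -1.95. CPSF6 fell by 0.63 and CPSF7 by 0.32 on the log2 scale (edgeR adjusted p = 2.74e-07 and 0.00519). The core proteins, named for their role after the values were seen, did not move as one. NONO fell by 0.52 (SE 0.07) and SFPQ by 0.20 (SE 0.07), while PSPC1 rose by 0.31 (SE 0.10). RBM14, which holds paraspeckles together, fell by 1.16 (SE 0.16). HNRNPK fell by 0.47 on the log2 scale (SE 0.07, edgeR adjusted p = 3.62e-06). ZNF335 was the largest increase at 0.52 (edgeR adjusted p = 0.0223). These mRNAs say nothing of protein amounts.

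Among 15 genes of the nuclear speckle, where MALAT1 resides, 2 were higher, 8 lower and 5 not called, beside 57.9% called over all tested genes, with a median log2 fold change of -0.20. DYRK1A, a kinase of the speckle, rose by 0.84 (SE 0.08, edgeR adjusted p = 4.44e-09) and the splicing factor gene SRSF2 fell by 0.65 (SE 0.08, edgeR adjusted p = 1.74e-07). The speckle scaffold gene SON had a log2 fold change of 0.12 (adjusted p = 0.113). Of 10 tested subunits of RNase P and its relative RNase MRP, 2 were higher, 2 lower and 6 not called, beside 57.9% called over all tested genes. Their median was -0.12, and with so few genes the count is no result about the list. POP4 rose by 0.31 (SE 0.12, edgeR adjusted p = 0.0294), and RPP25 fell by 1.53 on the log2 scale, with means of 8.45 CPM and 2.90 CPM (SE 0.28, edgeR adjusted p = 4.59e-05).

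Of the 7 listed NORAD-binding proteins, 1 was higher, 3 were lower and 3 were not called, a share near the 57.9% over all tested genes and so no result about the list, with a median of -0.06. PUM2, which encodes a Pumilio protein, fell by 0.53 on the log2 scale (SE 0.09, edgeR adjusted p = 3.79e-05). For KCNQ1OT1, 7 of 10 listed chromatin and imprinted genes were tested, of which 1 was higher, 4 lower and 2 not called, beside 29.4% higher and 28.5% lower over all tested genes, with a median of -0.44. KCNQ1, CDKN1C and SLC22A18 of its imprinted domain did not pass the filter. PHLDA2, an imprinted gene of that domain, fell by 0.92 (SE 0.24, edgeR adjusted p = 0.00226), and SUZ12, a Polycomb subunit gene, rose by 0.35 (SE 0.08, edgeR adjusted p = 0.000576).

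Of the 10 microRNA processing genes relevant to the host transcripts, none was higher, 5 were lower and 5 were not called, beside 29.4% higher and 28.5% lower over all tested genes, with a median of -0.25. TARBP2, a partner of Dicer, had the largest decrease, by 0.75 (SE 0.16, edgeR adjusted p = 0.000379). DROSHA, which encodes the nuclease that cuts microRNA hairpins from their hosts, was also among the genes that fell, by 0.50 on the log2 scale (SE 0.09, edgeR adjusted p = 4.85e-05). DICER1 had a log2 fold change of -0.16 (adjusted p = 0.0723).

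**Figure D5:**
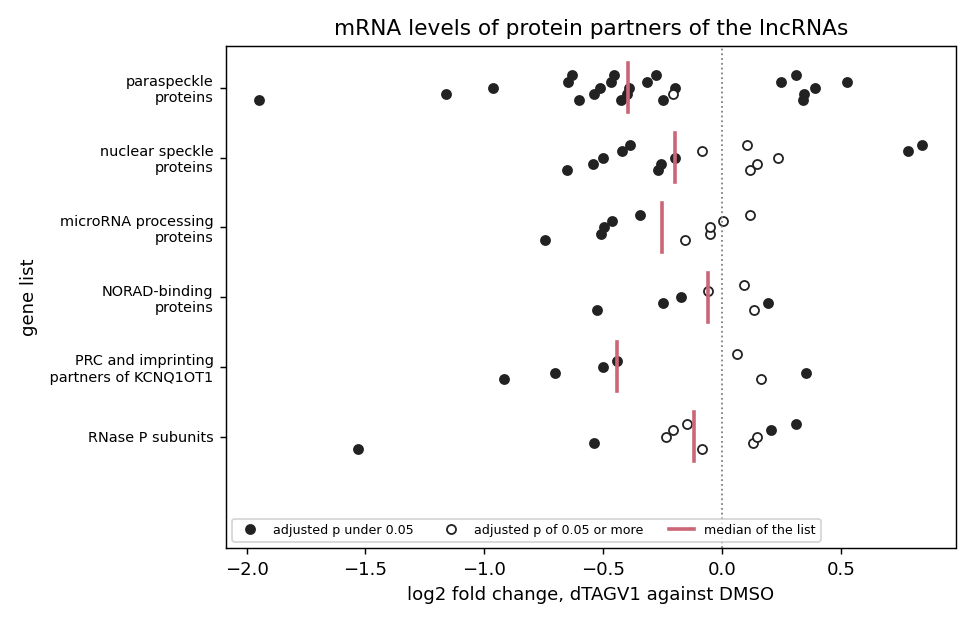
Log2 fold change, dTAGV1 against DMSO (x axis), of the tested genes of 6 lists of proteins that work with the lncRNAs, 1 point per gene, filled where the edgeR adjusted p was under 0.05, with a bar for the median of each list. The medians lie between -0.44 and -0.06, and the points of each list spread to both sides of 0.

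The genes whose levels followed NEAT1 most closely across the 8 libraries were SOCS5, ATP7A and ELAPOR2, with root-mean-square differences in centred log2 CPM of 0.0942, 0.0956 and 0.104, beside a median of 0.627 over 9024 genes. SOCS5 encodes a suppressor of cytokine signalling and ATP7A a copper transporter. For MALAT1 they were PDCL3, RPL37A and NAAA, with differences of 0.0466, 0.0498 and 0.0507, beside a median of 0.274. This likeness includes the difference between treatments and is a description over 8 libraries of 2 groups.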

How the data were processed

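Per the labels' protocols, RNA was isolated with Trizol and sequenced from transcript 3′ ends with Lexogen's forward QuantSeq kit. The authors deposited whole-number read counts per gene, in the layout of STAR, with 3 columns by strand. The submitters' processing notes name FastQC, fastp, STAR, HTSeq, DESeq2 and GRCh38, while the gene annotation and the handling of molecular identifiers are not given in the sources used here. Reads in the 4 totals of reads given to no gene, 56.7% to 62.8% of a library, stayed out. They can include reads lying under more than 1 gene of the same strand. GENCODE 29 has such overlaps for NEAT1, MALAT1, TUG1, PVT1, CYTOR, MIR22HG and MIR17HG, so their counts may be incomplete. Coordinates are from GENCODE 29, which is not stated to be the authors' annotation.

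Counts on the gene's strand were tested with edgeR 4.0.16 (filterByExpr, TMM, robust quasi-likelihood F test), with Benjamini-Hochberg adjustment over all tested genes and a threshold of 0.05, and CPM is counts per 1000000 after TMM scaling. The within-gene test used the same method on the overlapped and other reads of each gene, with a term for the library and an interaction of portion and treatment. It was tested on simulated data with 200 of 1128 genes changed and recovered 84% of those changed by 1 on the log2 scale, with 6 false calls. The gene test was simulated on 12618 genes with 200 changed. It recovered 85.9% of genes changed by 1 and 64.2% of genes changed by 0.5, with 4 false calls. In the data 57.9% of genes were called, a far larger share, so these rates need not hold there. Floors cover counting error only, and PCR copies may be counted. Each SE was derived from the log2 fold change and the F statistic of the edgeR fit. The intervals are normal approximations from these SEs. They also cover the spread between libraries, but may be too narrow with 4 libraries per group.

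The lncRNAs and gene lists were chosen with earlier results of these data known. All 9 lncRNAs are named, and of each list the called genes with the largest increase and decrease. Named too are the nearest tested genes within 100 kb and the 3 genes most like NEAT1 and MALAT1, with a mean of at least 10 CPM. Of the genes these rules give, 2 are not reported here. Further list genes were named after their values were seen. Both groups carry replicate numbers 1 to 4, and deviations of same-numbered libraries correlated at 0.131, -0.0176, 0.0232 and 0.0340, so the numbers were not taken to pair libraries. Within a group, pairs of libraries differed by more than sampling noise, with a chi-square per degree of freedom of 1.82 to 5.09. Alternatives were other scalings, DESeq2 1.42.0, limma-voom (limma 3.58.1), other filters, counts irrespective of strand, a replicate term and leaving out each library.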

Additional observations from a re-analysis of the deposited data

Results flagged for a closer look

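In 1 of the 26 groups of 4 libraries examined, a library stood apart from the rest of its group. MIR17HG was at 8.46 CPM in dTAGV1 replicate 2 and at 5.91 to 6.19 CPM in the other 3 dTAGV1 libraries. Chance alone flags about 1 in 20 groups. Without that library the log2 fold change of MIR17HG was -0.99, beside -0.85 with it.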

How the results depend on the processing

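No direction of a lncRNA was reversed under any alternative. The calls lost in a test were those of MALAT1, in 10 of 15 alternatives, and CYTOR, in 6 of 16. MIR17HG kept its call in the 15 alternatives that tested it. It did not pass the filter on a mean of at least 100 counts, which left 7 lncRNAs tested. The number of lncRNAs called was 6 to 8, with 6 left under library-size scaling, without a filter, with the stricter filter, and without DMSO replicate 1 or dTAGV1 replicate 3. A filter on a mean of at least 100 counts left 6369 tested genes and 4120 calls, beside 7302 calls, because fewer genes were tested. With 1 library left out at a time, 6861 to 7232 genes were called. With a replicate block, 7434 genes and the same 8 lncRNAs were called, and the block changed no call among them. Counts irrespective of strand were void for MALAT1, which lies wholly under TALAM1.

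The within-gene shifts of NEAT1 and NORAD kept their calls in all 10 alternatives, with log2 changes of the ratio of -4.35 to -3.78 and 3.89 to 4.18 when each library was left out. The number of genes called there was 231 to 281 over the libraries left out. Depth limits MIR22HG altogether and leaves MIR17HG with 21 to 69 reads per library. The counts do not give the position of a read, so single poly(A) sites were not analysed here.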
